A study of Mus musculus with 10 samples.

Results

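The genes described here encode 9 receptor subunits for glutamate and GABA, chosen by name among the 56748 gene identifiers of the count tables, with their untreated and LPS counts already known: Gria2, Gria3, Grin1, Grin2c, Grin2d, Grik5, Gabbr1, Gabbr2 and Gabra4. RNA-seq counts came from cells sorted by flow cytometry as beta cells out of dispersed pancreatic islets of male NOD mice, an inbred strain prone to autoimmune diabetes. The mice were 6 to 8 weeks old and all libraries carry the NOD genotype, with no transgene or deletion in the labels. One group was untreated (5 libraries, numbered 1 to 5). In the other the islets had been exposed for 48 hours to lipopolysaccharide (LPS) at 50 ng/ml (5 libraries, numbered 6 to 10), a bacterial cell wall component sensed by Toll-like receptor 4. The labels do not give the time in culture of the untreated islets, so if it differed, exposure to LPS and time in culture cannot be told apart. Although the labels speak of independent samples, they name no animals behind each library, so p-values measure only the spread between these samples, which may be partly technical. Because of how the genes were chosen, their differences between the groups are given as a description.

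Glutamate opens cation channels of the AMPA, NMDA and kainate type, each built from several subunits, and GABA acts through GABA-A chloride channels and through the G protein-coupled GABA-B receptor. The GABA-B receptor is an obligate heterodimer: the Gabbr1 product binds GABA, and the Gabbr2 product carries it to the cell surface and couples to inhibitory G proteins. In islets, beta cells make and release GABA, alpha cells release glutamate, and receptors for both have been described on endocrine cells.

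Promoter windows of the 250 bases before the transcription start were found for 8 of the 9 genes in a RefSeq table (GRCm38.p6), and the window of Gria3 was not in it. Those of Gria2, the one of these genes called lower with LPS, and of the GABA-B pair are shown 5′ to 3′ on the strand of the gene, with CpG dinucleotides in capitals and without bases that lie in an annotated exon. They are Gria2 at chr3:80802836-80803085 (minus strand), Gabbr1 at chr17:37045716-37045965 (plus strand) and the 91 bases of the Gabbr2 window at chr4:46991874-46991964 (minus strand).
Gria2: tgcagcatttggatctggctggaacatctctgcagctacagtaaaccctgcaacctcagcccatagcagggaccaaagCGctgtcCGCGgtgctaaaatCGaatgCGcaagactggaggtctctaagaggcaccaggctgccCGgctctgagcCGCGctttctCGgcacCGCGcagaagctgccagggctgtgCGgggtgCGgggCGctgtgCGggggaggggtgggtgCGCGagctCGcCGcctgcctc
Gabbr1: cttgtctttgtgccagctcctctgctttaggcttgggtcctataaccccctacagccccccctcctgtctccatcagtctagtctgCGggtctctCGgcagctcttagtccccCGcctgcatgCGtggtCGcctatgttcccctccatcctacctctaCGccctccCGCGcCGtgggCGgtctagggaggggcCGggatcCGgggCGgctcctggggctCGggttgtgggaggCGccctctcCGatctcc
Gabbr2: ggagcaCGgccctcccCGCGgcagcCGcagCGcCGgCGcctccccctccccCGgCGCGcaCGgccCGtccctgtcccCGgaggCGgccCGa
All 3 were richer in G and C than the median window of all genes (52.4%, 6 CpG per 250 bases): 64.8% with 19 CpG for Gria2, 66.0% with 16 for Gabbr1 and, over its full window, 80.8% with 37 for Gabbr2. Searched on both strands of the full windows, the GC box letters GGGCGG stood in 5 of the 8 windows (Gabbr1, Gabbr2, Gabra4, Grik5 and, 3 times and partly overlapping, Grin2c), against 32.7% of all 32851 windows. The Gabbr2 matches, at 117 to 112 and 13 to 8 bases before the start, lay outside the 91 bases shown. The Grik5 and Grin2d windows began within an annotated exon. An NF-kB-type motif (in 0.980% of all windows), an interferon response-type motif (2.98%) and the cAMP response element TGACGTCA (1.55%) had no match in any of the 8, which says only that these letters are not in these windows.

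Totals assigned to genes ran from 18465188 to 27379892 per library. Beta cell markers were high, with Ins2 at 70290 CPM on average in untreated libraries, but the sorted cells also held RNA of other endocrine cells. Of 8 beta cell markers, 2 were called lower with LPS, both with separated groups. They were Slc2a2, the glucose transporter gene (372 ± 45.6 to 205 ± 10.2 CPM, log2 fold change -0.86), and Ucn3, the urocortin 3 gene (431 ± 43.5 to 277 ± 33.9 CPM, -0.64, with SD, n = 5 each). CPM here are counts scaled to a common library total. The summed level of 5 alpha cell markers ran from 4977 to 14260 CPM in untreated and from 4133 to 8921 CPM in LPS libraries, that of 3 delta cell markers from 6065 to 8192 and from 4969 to 9050 CPM. For 2 pancreatic polypeptide cell markers it ran from 1581 to 2985 and from 952 to 2150 CPM, and for 5 endothelial markers from 10.3 to 28.1 and from 8.83 to 11.9 CPM. Of the 15942 genes tested by edgeR's quasi-likelihood test, 601 passed an adjusted p of 0.05, or 3.77% (2.84% higher and 0.928% lower in LPS), and the groups did not overlap for 5.71% (3.85% with LPS higher and 1.87% with LPS lower). Of the 9 genes, 8 passed the filter on low counts, and 2 of those 8 were called: Gabbr2 higher and Gria2 lower. Nothing is read from that count against the 3.77%, since the genes were listed with this contrast known. The median log2 fold change of the 8 was -0.13, against -0.0091 over all genes tested.

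**Figure D1:**
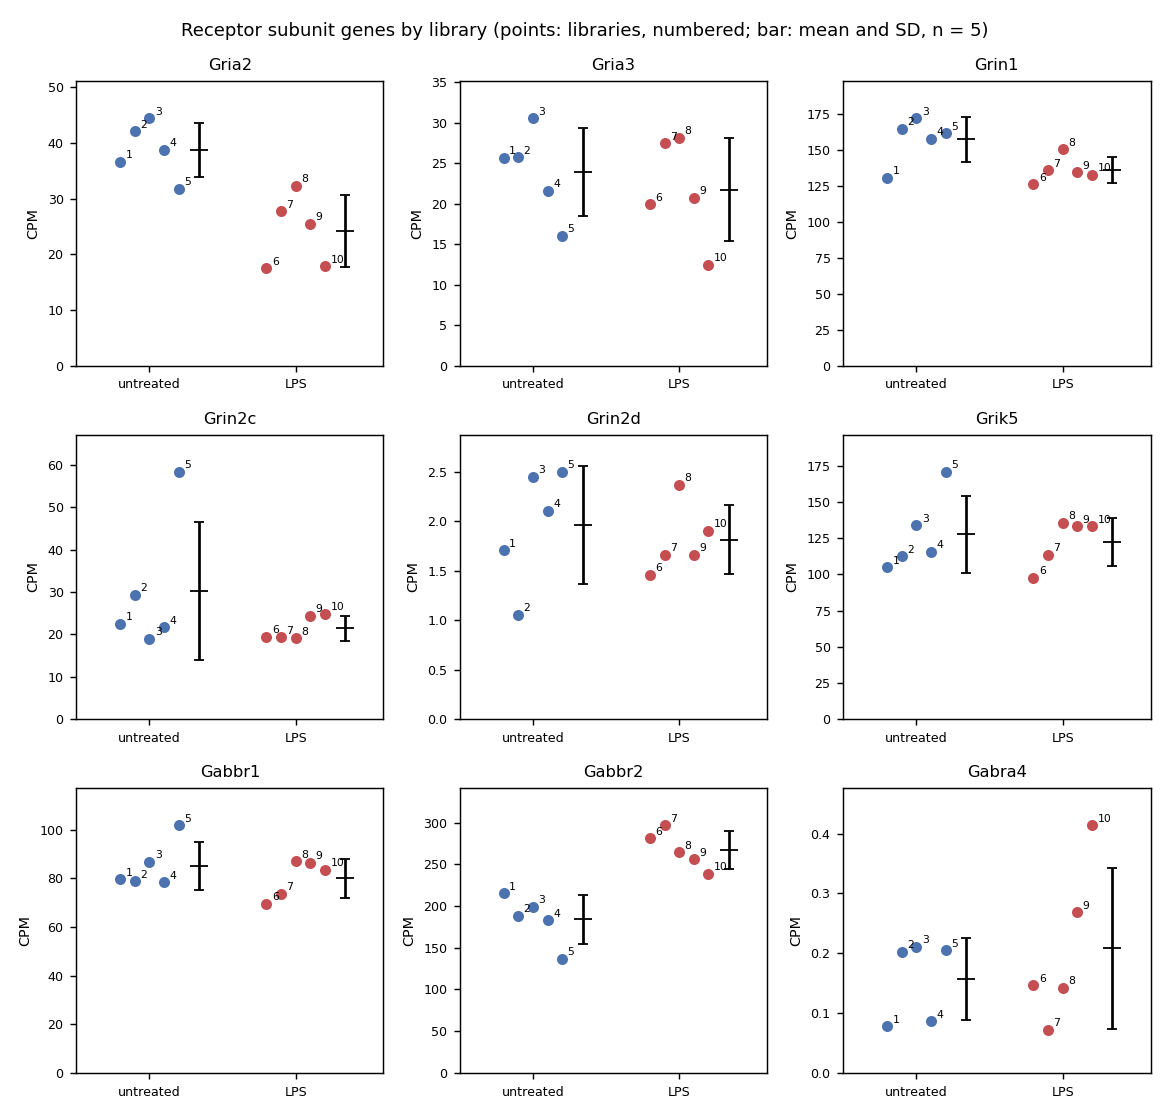
Normalised counts (CPM) of the 9 receptor subunit genes in each library, untreated (1 to 5) on the left and LPS (6 to 10) on the right of each panel, with the mean and SD of each group (n = 5) as a bar. All 5 LPS libraries lie above all untreated libraries for Gabbr2, 4 LPS libraries lie below all untreated libraries for Gria2, and untreated 5 stands apart for Grin2c at 58.4 CPM.

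Of the GABA-B pair, only the Gabbr2 level was separated between the groups. Gabbr2 (ENSMUSG00000039809) stood at 215, 188, 199, 183 and 137 CPM in untreated libraries 1 to 5 and at 281, 297, 264, 256 and 239 CPM in LPS libraries 6 to 10. All 5 LPS libraries were thus above the highest untreated one. The log2 fold change was 0.54 ± 0.11 (SE), or 1.45-fold, and the call held when each library was left out in turn. The summed level of 5 macrophage markers ran from 14.1 to 20.2 CPM in untreated and from 19.5 to 32.5 CPM in LPS libraries, and its part in the Gabbr2 values was not tested. Nearly all of that sum was Cd68 (16.7 and 26.8 CPM, called higher). Csf1r had 48 and 30 counts, Lyz2 14 and 4 and Adgre1 1 and 0 in the untreated and LPS groups, and Ptprc was at 0 in all libraries. The lowest Gabbr2 values of the groups were in untreated 5 and LPS 10. These libraries also had the lowest alpha (4977 and 4133 CPM), delta (6065 and 4969 CPM) and pancreatic polypeptide cell marker sums (1581 and 952 CPM) of their groups. The part of those cells in the Gabbr2 values, and in the ratio to Gabbr1 given below, was not tested.

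Gabbr1 (ENSMUSG00000024462) stood at 79.6, 78.8, 86.9, 78.4 and 102 CPM in untreated and at 69.5, 73.6, 87.0, 86.5 and 83.5 CPM in LPS libraries. These groups overlapped, untreated 5 was the highest of the 10, and the log2 fold change was -0.09 ± 0.09 (SE).

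Set against each other within a library, per kilobase of annotated exon, there was more Gabbr2 than Gabbr1 RNA in all 10 libraries. The ratio of the levels was 3.14, 2.77, 2.66, 2.71 and 1.56 in untreated and 4.70, 4.68, 3.53, 3.44 and 3.32 in LPS libraries, with no overlap. Gabbr1 made up 28.8 ± 5.88% of the summed level of the pair (SD, n = 5) in untreated libraries and 20.6 ± 2.77% (SD, n = 5) with LPS. The lowest ratio was that of untreated 5, and without it the ratio of the group means went from 1.53 to 1.40.

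**Figure D2:**
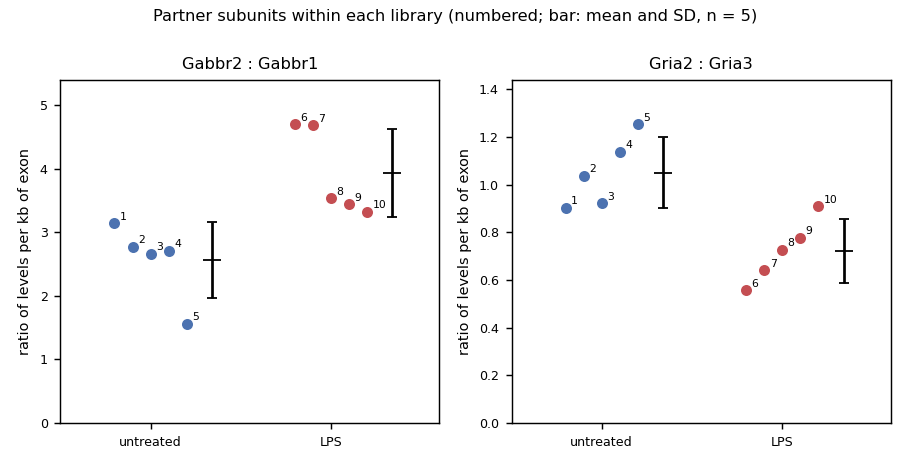
Ratio of the levels of partner subunits per kilobase of exon within each library, Gabbr2 to Gabbr1 (left) and Gria2 to Gria3 (right), with the mean and SD of each group (n = 5). The GABA-B ratio lies between 1.56 and 3.14 in untreated and between 3.32 and 4.70 in LPS libraries, while the AMPA receptor ratios overlap.

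AMPA receptors were represented by 2 genes. Gria2 (ENSMUSG00000033981) encodes the subunit that, after RNA editing, makes the channel nearly impermeable to calcium. It stood at 36.6, 42.1, 44.4, 38.8 and 31.8 CPM in untreated libraries 1 to 5 and at 17.5, 27.8, 32.3, 25.4 and 17.8 CPM in LPS libraries 6 to 10. Of the LPS libraries 4 lay below the lowest untreated one, and LPS 8 lay just above untreated 5. The log2 fold change was -0.68 ± 0.16 (SE), or 0.624 of the untreated level, and in bulk RNA fewer cells expressing the gene and less RNA per cell cannot be told apart. The call ended without untreated 2, untreated 3, untreated 4, LPS 9 or LPS 10, at log2 fold changes from -0.70 to -0.59. The alpha, delta, polypeptide and endothelial marker levels given above also varied between libraries, with Ppy (log2 fold change -0.99), Kdr (-3.12), the Schwann cell and glia marker Ngfr (-1.87) and the beta cell markers Slc2a2 (-0.86) and Ucn3 (-0.64) called lower, and their part in the Gria2 values was not tested.

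Gria3 (ENSMUSG00000001986), the other AMPA receptor subunit, stood at 25.7, 25.8, 30.6, 21.6 and 16.1 CPM in untreated and at 19.95, 27.5, 28.2, 20.8 and 12.5 CPM in LPS libraries. The groups overlapped over nearly their whole range, with the lowest values in untreated 5 and LPS 10, and the log2 fold change was -0.14 ± 0.21 (SE). The same libraries had the lowest alpha (4977 and 4133 CPM), delta (6065 and 4969 CPM) and pancreatic polypeptide cell marker sums (1581 and 952 CPM) of their groups, and the part of those cells in the Gria3 values was not tested. Gria1 had 1 count in each group. No read was assigned to Gria4 in any library; a count of 0 still allows a group level of 0.0246 CPM (untreated) or 0.0269 CPM (LPS), taking 3 counts per group as the limit and counting error alone. Gria2 made up 51.0 ± 3.47% of the AMPA receptor level per kilobase (SD, n = 5) in untreated libraries and 41.6 ± 4.54% (SD, n = 5) with LPS. The highest LPS library reached 47.6% and the lowest untreated one 47.4%, so the groups touched.

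NMDA receptors need the Grin1 product, which binds the co-agonist glycine or D-serine, together with a glutamate-binding GluN2 subunit. Grin1 (ENSMUSG00000026959) stood at 131, 165, 172, 157 and 161 CPM in untreated and at 126, 136, 150, 134 and 133 CPM in LPS libraries. Untreated 1 lay within the LPS range, and the log2 fold change was -0.21 ± 0.08 (SE), which was not called with all libraries and was called without untreated 1 (-0.27). An antisense gene, Grin1os, covers 13.5% of the annotated exon bases of Grin1, but it had 21 counts in all, against 19101 and 15208 for Grin1 in the untreated and LPS libraries.

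Grin2c (ENSMUSG00000020734) was the main GluN2 gene, with 94.6 ± 2.62% of the GluN2 level per kilobase (SD, n = 5) in untreated libraries and 93.9 ± 1.51% (SD, n = 5) with LPS. It stood at 22.5, 29.4, 19.0, 21.7 and 58.4 CPM in untreated and at 19.5, 19.3, 19.1, 24.4 and 24.9 CPM in LPS libraries. The log2 fold change of -0.50 ± 0.26 (SE) rested on untreated 5, and was -0.11 without it. Grin2d (ENSMUSG00000002771) was low, from 1.05 to 2.50 CPM in untreated and from 1.46 to 2.37 CPM in LPS libraries (-0.11 ± 0.25 SE). The antisense gene Gm45441 covers 9.66% of its exon bases, with 47 counts in all. Grin2a and Grin2b, the main GluN2 genes of the forebrain, summed to 6 and 1 counts in the untreated group and to 4 and 1 in the LPS group.

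Kainate receptors were represented mainly by Grik5 (ENSMUSG00000003378), a subunit of high agonist affinity that needs a partner from Grik1, Grik2 or Grik3 to form a channel. It stood at 105, 112, 134, 116 and 171 CPM in untreated and at 97.6, 113, 136, 133 and 133 CPM in LPS libraries, with overlapping groups and untreated 5 the highest (log2 fold change -0.06 ± 0.13 SE). Its possible partners were far lower: Grik2 averaged 0.834 and 0.488 CPM, Grik3 1.71 and 1.06 CPM in untreated and LPS libraries, and Grik1 had 1 count in total. Grik5 held 98.0 ± 0.711% of the kainate receptor level per kilobase (SD, n = 5) in untreated libraries and 98.8 ± 0.291% (SD, n = 5) with LPS.

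Gabra4 (ENSMUSG00000029211), a GABA-A receptor alpha subunit, was near the limit of detection. It had 2, 5, 5, 2 and 5 counts in untreated and 3, 2, 3, 5 and 10 counts in LPS libraries, at most 0.414 CPM, and did not pass the filter on low counts.

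Per kilobase of exon, the order of the 9 genes in untreated libraries was Gabbr2 (27.6 ± 4.40 CPM per kb, SD, n = 5), Grik5 (24.7 ± 5.12), Grin1 (16.2 ± 1.63), Gabbr1 (11.0 ± 1.28), Grin2c (6.00 ± 3.22), Gria2 (2.49 ± 0.317), Gria3 (2.43 ± 0.551), Grin2d (0.295 ± 0.0901) and Gabra4 (0.0257 ± 0.0112). The ranges of Gabbr2 and Grik5, of Gabbr1 and Grin2c, and of Gria2 and Gria3 overlapped. In LPS libraries Gria2 and Gria3 changed places within overlapping ranges, and Gabbr2 (40.0 ± 3.36 CPM per kb) lay above the range of Grik5 (23.7 ± 3.20). Annotated exon lengths include long untranslated ends that these cells may not use, so the order across genes is approximate.

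**Figure D3:**
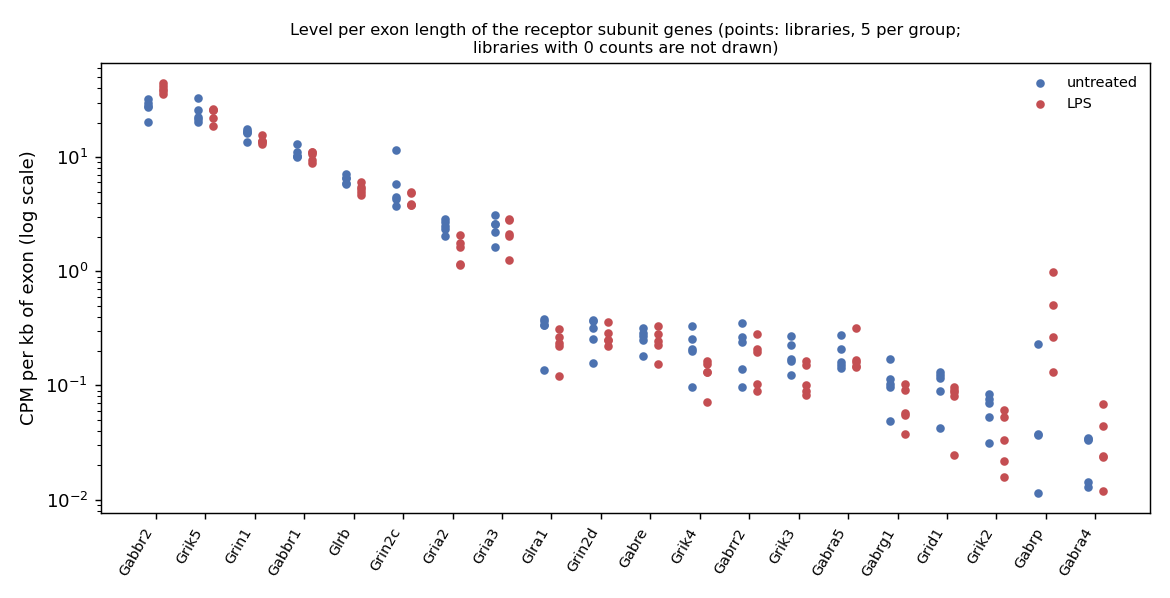
Level per kilobase of annotated exon (CPM per kb, log scale) of 19 glutamate, GABA and glycine receptor subunit genes that passed the filter and of Gabra4, each point 1 library. Gabbr2, Grik5, Grin1 and Gabbr1 stand above 8 CPM per kb in all libraries, and most other subunits stand under 1.

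The remaining receptor genes of these families were taken whole, by gene family, and tested in the same fit. Of 43 genes (12 ionotropic and 8 metabotropic glutamate, 18 GABA-A and 5 glycine receptor genes), 12 passed the filter on low counts. None of the 12 was called by edgeR, against 3.77% of all genes tested. DESeq2 and limma-voom called none either. In edgeR 5 of the 12 had an unadjusted p under 0.05. The share of all genes at that unadjusted threshold is not given here, so nothing is read from this number. No metabotropic glutamate receptor gene passed the filter, and Grm3, Grm5, Grm6 and Grm7 had 0 counts in all libraries. The log2 fold change was below 0 for 10 of the 12 (median -0.36), and for 8302 of all 15942 genes tested. Among the 10 were the kainate receptor genes Grik2 (-0.80 ± 0.40 SE), Grik3 (-0.70 ± 0.28) and Grik4 (-0.74 ± 0.33), at edgeR adjusted p of 0.372, 0.242 and 0.299. Grid1 had a log2 fold change of -0.38, Gabrg1 of -0.66, Gabrr2 of -0.34 and Glra1 of -0.43, all at means under 1 CPM in both groups, and Gabre of -0.07.

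The glycine receptor beta subunit gene Glrb, at 29.8 ± 2.56 CPM in untreated and 24.6 ± 2.38 CPM in LPS libraries (SD, n = 5 each), missed the threshold at -0.28 ± 0.09 (SE) on the log2 scale (edgeR adjusted p = 0.112). Gabra5 was at 0.554 and 0.556 CPM. Gabrp, a GABA-A subunit gene known from epithelia, summed to 25 counts in the untreated and 146 in the LPS group, at 0.0388, 0, 0.127, 0.774 and 0.123 CPM in untreated libraries and 0.439, 0.903, 0, 1.72 and 3.31 CPM with LPS. Its log2 fold change of 2.59 ± 0.95 (SE) was not called (adjusted p = 0.191), and LPS 8 had no count. The summed level of 5 ductal markers ran from 436 to 566 CPM in untreated and from 511 to 655 CPM in LPS libraries, most of it Krt7 (423 and 472 CPM, not called). Another of these markers, Spp1, was called higher (46.3 and 91.1 CPM, log2 fold change 0.97, groups separated), and the part of these cells in the Gabrp values was not tested.

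**Figure D4:**
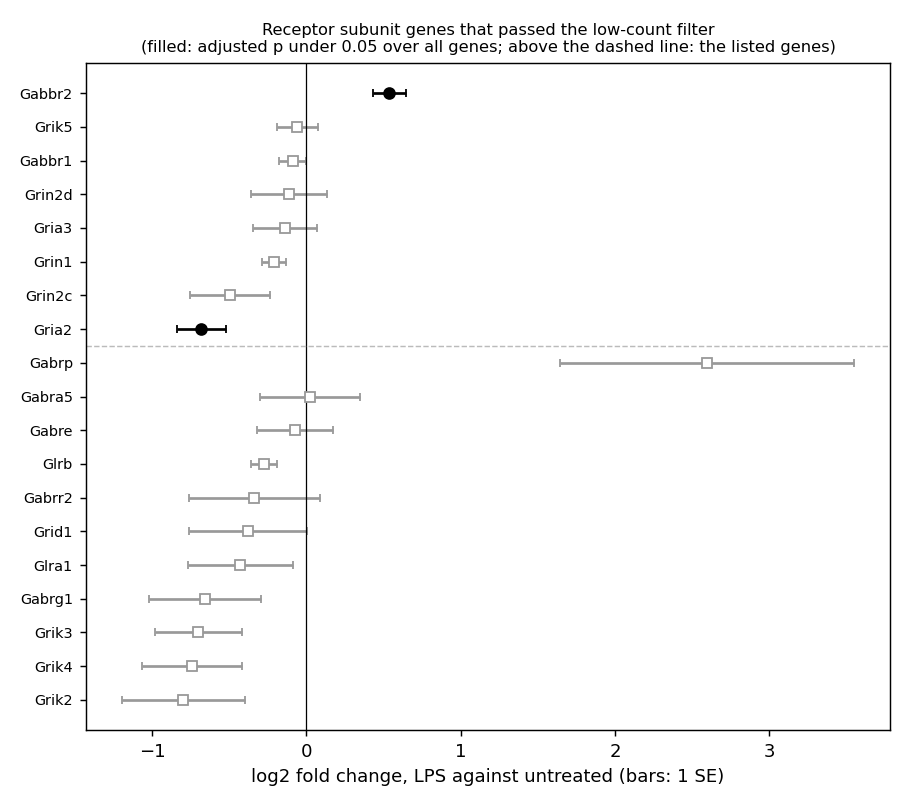
Log2 fold change of LPS against untreated with 1 SE for 19 receptor subunit genes that passed the filter on low counts. Filled points (Gabbr2 at 0.54 and Gria2 at -0.68) are the called genes, and 16 of the 19 values lie below 0 (8302 of 15942 over all genes tested).

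Gad1 and Abat, which make and break down GABA, were both lower with LPS. Of 11 genes of GABA synthesis, breakdown and transport, 6 were tested, 2 were called lower and none higher (median log2 fold change -0.19). Over all genes tested, 0.928% were called lower and 2.84% higher. Gad1, which encodes a GABA-forming glutamate decarboxylase, fell from 81.6, 99.1, 82.3, 77.8 and 119 CPM in untreated to 55.8, 62.5, 64.2, 60.5 and 73.7 CPM in LPS libraries. Every LPS library was below every untreated one (log2 fold change -0.54 ± 0.11 SE; edgeR adjusted p = 0.0176), and the call ended without untreated 2 or LPS 9 (adjusted p = 0.0549 and 0.0553). Abat, the transaminase that degrades GABA, fell from 124 ± 8.71 to 99.6 ± 8.02 CPM (SD, n = 5 each; -0.32 ± 0.07 SE, edgeR adjusted p = 0.0223), again with separated groups. Its call ended without untreated 2, untreated 3 or LPS 9 (adjusted p up to 0.0736). Gad2, the other decarboxylase gene, was expressed little (0.975 ± 0.495 CPM in untreated, 0.461 ± 0.319 CPM in LPS libraries). For Lrrc8d, which encodes a subunit of the volume-regulated anion channel, the means were 122 and 148 CPM, a difference that missed the threshold (0.27, edgeR adjusted p = 0.0706).

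Of 17 genes of glutamate synthesis, breakdown and transport, 10 were tested, with 1 called higher and 1 lower (median log2 fold change 0.07). The shares over all genes tested were 2.84% higher and 0.928% lower. Slc7a11, the cystine and glutamate exchanger gene, rose from 3.17 to 5.72 CPM (0.85 ± 0.19 SE, edgeR adjusted p = 0.0213). The groups overlapped by 1 library, LPS 10 at 4.47 CPM against untreated 2 at 4.50 CPM, and the call was lost, at adjusted p of at most 0.0709, when untreated 3, LPS 6 or LPS 7 was left out. The glutamine synthetase gene Glul (0.32, adjusted p = 0.0713) and the glutamate dehydrogenase gene Glud1 (0.05, adjusted p = 0.895) were not called.

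**Figure D5:**
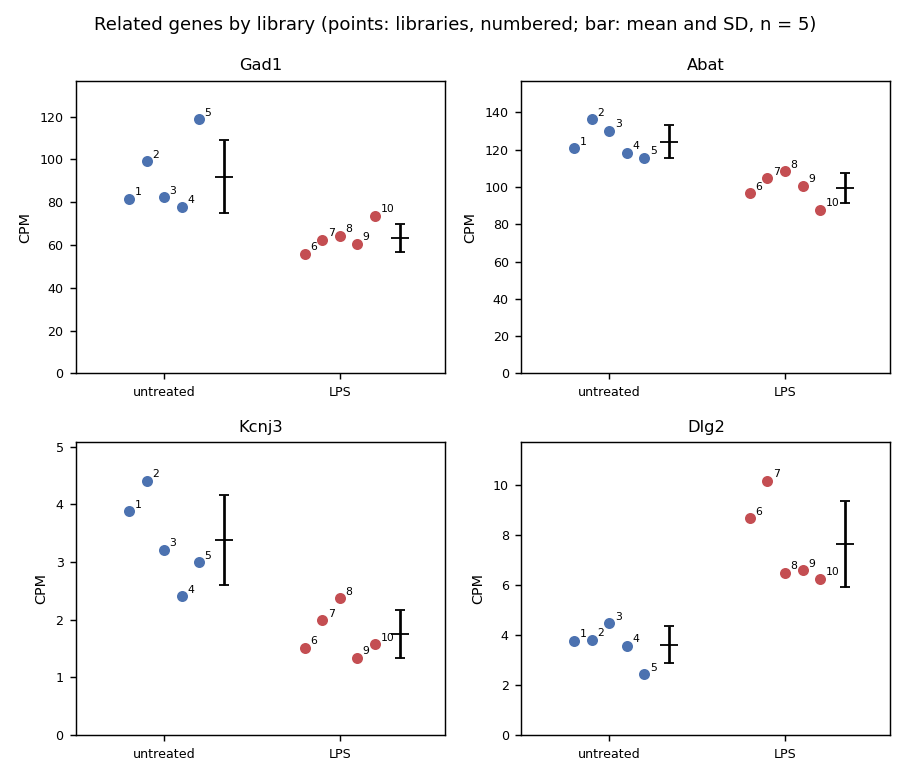
CPM in each library (untreated 1 to 5, LPS 6 to 10) of 4 called genes of GABA metabolism, scaffolding and receptor output, with the mean and SD of each group (n = 5). The groups do not overlap in any of the 4 panels, with Gad1, Abat and Kcnj3 lower and Dlg2 higher in LPS. The 4 were picked among called genes, and Slc7a11, called with overlapping groups, is not drawn. Over all genes tested the groups did not overlap for 5.71%.

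Calls among partners of the receptors were few and went both ways, and nothing is read from their number. Over all genes tested, 2.84% were called higher and 0.928% lower. Of 21 GABA receptor auxiliary and effector genes, 19 were tested, 2 were called lower and none higher (median log2 fold change -0.07). Kcnj3 encodes a G protein-gated potassium channel subunit that GABA-B receptors open in neurons. It stood at 3.88, 4.41, 3.21, 2.41 and 2.99 CPM in untreated and fell to 1.51, 1.99, 2.37, 1.34 and 1.57 CPM in LPS libraries (-0.94 ± 0.21 SE, adjusted p = 0.0261). The Kcnj3 groups were only just separated, and its call ended in 6 of the 10 fits without 1 library, those without untreated 1, 2 or 3 or LPS 6, 9 or 10 (adjusted p up to 0.0827). The G protein genes Gnai2 (1168 and 1183 CPM) and Gnao1 (756 and 721 CPM), the most abundant of the list, were not called (0.02 and -0.07).

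Of 22 glutamate receptor auxiliary and scaffold genes, 16 were tested, with 1 called higher and none lower (median log2 fold change -0.0048). The shares over all genes tested were 2.84% higher and 0.928% lower. Dlg2, which encodes the scaffold protein PSD-93, rose from 3.77, 3.81, 4.47, 3.57 and 2.42 CPM in untreated to 8.68, 10.2, 6.50, 6.60 and 6.25 CPM in LPS libraries. The groups were well apart (1.09 ± 0.19 SE, edgeR adjusted p = 0.00396), and the call held without any single library. The most abundant members were not called: Grina stood at 250 and 297 CPM (0.25, adjusted p = 0.269) and Dlg4, the gene of the related scaffold PSD-95, at 174 and 163 CPM (-0.10, adjusted p = 0.467).

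Likeness to other genes was measured as the root mean square distance between z-scored log2 CPM profiles over the 10 libraries, among 13665 other genes with a symbol and a mean of at least 1 CPM. It is a description, since the profiles share the libraries and the group difference. Closest to Gabbr2 was Fgg, the fibrinogen gamma chain gene (distance 0.111), closest to Gria2 the calcium-binding protein gene Calb1 (0.222), and closest to Grin1 was Mast3 (0.169). Gabbr1 was closest to Rgl2 (0.181), Grik5 to Klc1 (0.244), Gria3 to Ptprz1 (0.257), Grin2d to Gm45110 (0.269) and Grin2c to Abhd8 (0.404). Fgg (log2 fold change 2.49) and Calb1 (-0.89) differed between the groups by more than Gabbr2 and Gria2 did.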

How the data were processed

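The authors deposited raw read counts for each Ensembl gene, in a separate table for every library. Per the submitters' processing notes the build was GRCm39 and the tools included STAR, SAMtools and HTSeq, beside FastQC, Trimmomatic and DESeq2; their versions, the annotation and the strand setting are not stated there, so reads of overlapping antisense genes may be included. Lines that name no gene (15.4 to 20.2% of reads per library) were left out. Symbols matched 52073 of 56748 identifiers (GENCODE M21, also the source of exon lengths). Libraries within a group differed by more than sampling noise (chi-square per gene at least 6.14 over 20 pairs).

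Genes kept by edgeR 4.0.16 (filterByExpr, minimum count 10, minimum total 15; R 4.3.3) were TMM-normalised, and groups were compared by its quasi-likelihood test without covariates, adjusted by Benjamini-Hochberg over 15942 genes; calls are at an adjusted p under 0.05. SEs come from the fold change and its F statistic. Likeness used log2(CPM + 0.5). Alternatives were DESeq2 1.42.0, its size factors, other filters, limma-voom 3.58.1, 1 surrogate variable (sva 3.50.0) and leaving out each library. Named were the 9 genes, all other tested receptor genes, called or the 2 most abundant members of each related list, except a few that are not reported here though counted in their lists, and the gene closest to each of the 9 with a mean of at least 1 CPM; Gad2 and 0- or low-count relatives were added after their values were seen. The genes and lists were chosen with earlier results of these data known. Figures used Python 3.11.15 and matplotlib 3.10.9.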

Additional observations from a re-analysis of the deposited data

Results flagged for a closer look

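In groups of 5 libraries, 9 of 88 sets of values had 1 library far from the other 4, where chance flags about 1 in 20, or 4.4. Untreated 5 stood apart in 4: high in Grin2c (58.4 CPM), Grina (306 CPM) and the share of Gabbr1 in the GABA-B level (39.1%), and low in Glra1 (0.328 CPM). Gabrp was high in untreated 4 (0.774 CPM), Gabra5 in LPS 7 (0.939 CPM) and Glud1 in untreated 1 (197 CPM) and LPS 6 (213 CPM), and Grid1 was low in LPS 6 (0.146 CPM).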

How the results depend on the processing

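No paired analysis was possible because the groups share no replicate number in the labels. DESeq2 called 950 genes and the fit with 1 surrogate variable 1335, against 601, and 401 to 624 with single libraries left out. Of the 9 receptor genes, 2 were called in all settings with all libraries (Gabbr2 and Gria2) and 1 to 3 without a library. Gabbr2 kept its call in all 16 alternatives (log2 fold change 0.45 to 0.60), and Gria2 in 11 of 16 (-0.81 to -0.59, adjusted p up to 0.0869). The scaffold list held 2 calls with DESeq2, 3 with the surrogate variable and 1 to 2 without a library, against 1. GABA receptor partners held 1 to 2 and GABA metabolism 0 to 3 calls without a library, against 2 each; glutamate metabolism held 0 to 2, and 1 with no filter, against 2. Without single libraries, some log2 fold changes near 0 changed sign: Gria3 (-0.254 to 0.0109), Grik5 (-0.12 to 0.0703), Gabra5 (-0.27 to 0.21), Gabre (-0.20 to 0.0441), Gnai2 (-0.00437 to 0.0255) and Glud1 (-0.0683 to 0.14). Grik2, Grik4, Grid1, Gabra5, Gabrg1, Gabrp, Gabrr2 and Glra1 have no value with the filter of 1 CPM in 5 libraries. The causes were not tested. The LPS over untreated ratio ran from 1.40 to 1.62 for Gabbr2 to Gabbr1 and from 0.643 to 0.727 for Gria2 to Gria3. In genes under about 1 CPM, few counts limit what can be detected.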

Other observations

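Gabra3, a GABA-A receptor alpha subunit gene, had no count in the untreated group and 14 in the LPS group, from 4 of its 5 libraries, too few to pass the filter. Transporters that clear or package the transmitters were mostly at or near 0. For the vesicular transporter genes the sums in the untreated and LPS groups were 7 and 2 counts for Slc17a6, 4 and 4 for Slc17a7 (both glutamate) and 5 and 2 for Slc32a1 (GABA). The plasma membrane GABA transporter gene Slc6a13 had 0 and 9 counts. Slc1a1, a plasma membrane glutamate transporter gene, was at 1.66 and 1.67 CPM. These genes were named after their values were seen.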
